A study of Mus musculus with 14 samples.

Results

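The genes described here are 9 members of the bone morphogenetic protein (BMP) pathway, namely the ligands *Bmp2*, *Bmp4*, *Bmp6* and *Bmp7*, the type I receptors *Bmpr1a*, *Bmpr1b* and *Acvr1*, and the type II receptors *Bmpr2* and *Acvr2a*. They were chosen by name, and they are 9 of the 28929 genes listed in the retina and brain matrices together (28316 in the retina and 26528 in the brain). Each unique molecular identifier (UMI) marks 1 captured transcript, and the UMIs of each gene were summed over the nuclei of each labeled cell type in each library. Levels are given as CPM, the UMIs of a gene scaled to the total UMIs of those nuclei.

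BMPs are secreted dimers of the TGF-beta superfamily that bring type I and type II serine/threonine kinase receptors together. The type II receptor phosphorylates the type I receptor, which in turn phosphorylates SMAD1, SMAD5 and SMAD9, and these enter the nucleus with SMAD4 and raise genes such as *Id1* and *Smad6*. In the eye, BMPs are known for patterning the optic cup along its dorsal and ventral axis, and in vessels BMP receptors act beside TGFBR1, the type I receptor for TGF-beta that was deleted here.

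The data are single-nucleus RNA counts from whole retinas and from vascular fragments of the brain. The retina has 1 control library and 11 libraries from *Cdh5CreER;Tgfbr1 CKO/-* (CKO) mice, and the brain has 1 library of each genotype, made from pooled fragments of 2 brains each. CKO mice carry a floxed and a null *Tgfbr1* allele and a tamoxifen-inducible Cre driven by the *Cdh5* promoter in endothelial cells (ECs), and received 4-hydroxytamoxifen between postnatal days 3 and 5. The labels call the controls wild type, the paper describes its controls as typically *Cdh5CreER;Tgfbr1 CKO/+*, and no treatment is stated for the controls of these libraries. The mice were at postnatal day 14 by the methods of the paper and young adults by the labels. The number of mice behind each retinal library is not given. The deletion is aimed at ECs, and none of the 11 retinal labels is for ECs. ECs among the labeled nuclei are not excluded, as EC markers summed in Müller glia to 1292 CPM for control and 1328 ± 189 CPM for CKO (n = 10), with *Flt1* the most abundant, and to means under 150 CPM in the other types. The control retina has 11513 nuclei and 30989702 UMIs. The CKO retinas have from 104 to 18862 nuclei (median 4210) and from 90449 to 55803724 UMIs (median 16443337). The control brain has 16649 nuclei and 49798325 UMIs, and the CKO brain has 14675 nuclei and 31033373 UMIs. Libraries share few cell barcodes, 10 of 77666 in the retina and 2 of 31322 in the brain.

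Several libraries stand apart in ways that bear on the results. CKO retina 4 holds 104 nuclei, and its 25 nuclei labeled as retinal ganglion cells (RGC) have 83.0 CPM of the RGC markers against at least 735 CPM in each other library, with *Rbpms*, *Pou4f1* and *Thy1* at 0. Its *Tgfbr1* level is 365 CPM from 33 UMIs, where the control has 89.0 CPM (95% interval 85.7 to 92.4) and the other CKO retinas 71.4 to 87.0. The brain libraries have 36.5 CPM of *Tgfbr1* for the control and 26.2 CPM for CKO, and counts of whole genes do not show whether the deletion took place. The sex of the mice is not balanced. *Xist*, a transcript of female cells, is at 6779 CPM in the control retina, between 5577 and 6823 CPM in CKO retinas 1, 2, 4 and 7, and at most 12.9 CPM in the others. Brain *Xist* is at 1963 CPM for the control and 1.29 CPM for CKO, and genes of the Y chromosome sum to 189 and 421 CPM. The control brains thus hold transcripts of both sexes and the CKO brains hardly any *Xist*, and sex and genotype cannot be told apart there. The authors' batch 1 holds the control and CKO retinas 1 to 3, batch 2 holds CKO 4 and 5, and batch 3 holds CKO 6 to 11, of which CKO 8 to 11 were made with a later kit (v5.0).

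The labels were compared with marker genes. The summed markers of rods, cones, rod bipolar cells (RBC), cone bipolar cells (CBC), GABAergic amacrine cells (GABA_AC), horizontal cells (HC) and immune cells were each highest in the nuclei of that label in 11 of 11 libraries. RGC markers were highest in RGC nuclei in 11 of 12 libraries, the exception being CKO 4, Müller glia (MG) markers in MG nuclei in 7 of 11, and astrocyte markers in astrocytes in 4 of 4. The list for glycinergic amacrine cells (Gly_AC) was highest in that label in 2 of 11 libraries, so this label is used as the authors give it. In the brain, markers of ECs, pericytes, vascular smooth muscle cells (vSMCs), astrocytes, oligodendrocytes, oligodendrocyte precursors (OPCs) and the choroid plexus cluster CP_8 were highest in their own label in 2 of 2 libraries. Nuclei labeled glia had the highest fibroblast markers, 4319 and 4139 CPM with *Col1a2* the most abundant, against 1045 and 1348 CPM of astrocyte markers, and the cluster CP_6 had 2998 and 1315 CPM of choroid plexus markers where CP_8 had 41863 and 40716.

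In the retina, *Bmp6*, *Bmp7*, *Bmpr1a*, *Acvr1* and *Acvr2a* differed past the threshold between some neighbors in the order of cell types. The order was taken from the same CKO values, so the pairs and their directions were chosen from the data tested. No member passed the test between CKO and control. *Bmp6* was highest in the nuclei labeled as glycinergic amacrine cells, *Bmp7* in rod bipolar cells, *Bmpr1a* in photoreceptors and *Bmpr1b* in Müller glia. *Bmpr2*, *Bmpr1b*, *Bmp2* and *Bmp4* did not differ past the threshold between any neighbors in that order. Pairs with astrocytes rest on 4 libraries, which cannot give an exact paired p below 0.125, so they could not pass. For *Bmpr1b* these are the pairs at the top of its order, and Müller glia were not tested against the types below astrocytes. The comparison of CKO with control asks whether loss of an EC receptor goes with a difference in these genes in the surrounding cells. It was fitted with edgeR for each cell type with at least 20 nuclei in the control, over all genes, with batch and kit as terms, which makes it a contrast within batch 1. Of 9 members, 8 passed the filter on low counts in at least 1 type and *Bmp2* in none, which gave 59 tests. Of these, 0 passed at an adjusted p of 0.05, 4 had an unadjusted p under 0.05, and DESeq2 called 0 with 3 under 0.05. By edgeR, the share of all genes called was as low: 0% in CBC, HC, immune cells and RGC, 0.0622% in cones, 0.00676% in GABA_AC, 0.0363% in Gly_AC, 0.0385% in MG, 0.0171% in RBC and 0.0141% in rods. By DESeq2 it ranged from 0% in immune cells and RGC to 0.325% in rods. Of all genes, an unadjusted p under 0.05 was reached by 367 of 13210 in RGC (the lowest share) to 1210 of 12992 in MG (the highest) with edgeR. With DESeq2 these were 39 of 13210 in RGC and 700 of 12992 in MG. With 1 control library, the fit takes its spread from the CKO libraries.

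**Figure D1:**
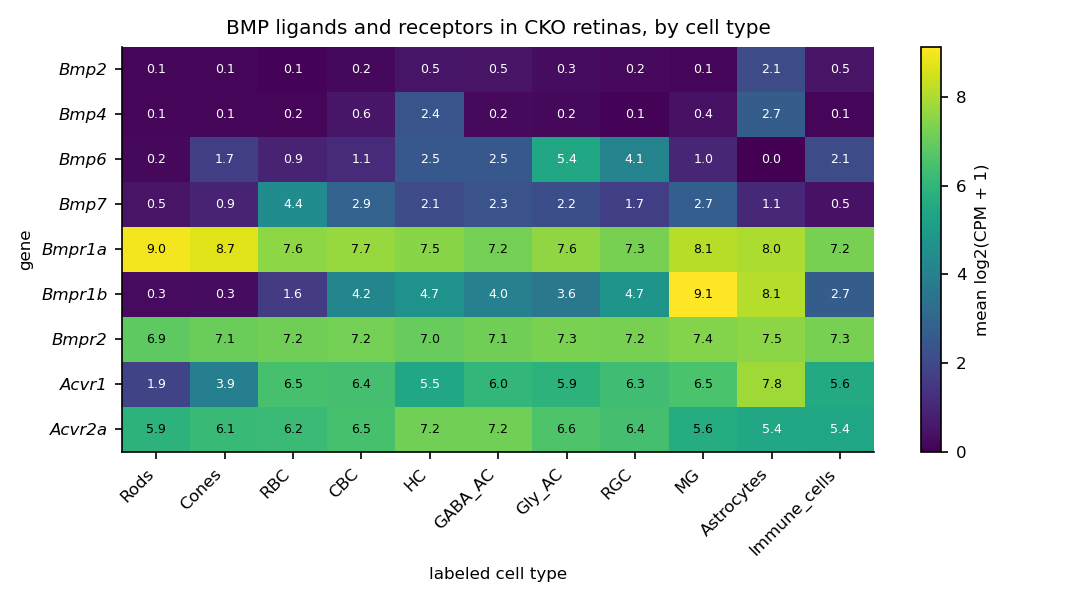
Mean log2(CPM + 1) of each member (rows) in each labeled retinal cell type (columns) over the CKO libraries with at least 20 nuclei of that type, which are 11 for RGC, 4 for astrocytes and 10 for each other type. *Bmpr1a* is highest in rods, *Bmpr1b* in MG and astrocytes, and *Bmp6* in Gly_AC, whereas *Bmpr2* varies little between columns.

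*Bmp6*, whose protein is a ligand also known for the control of iron balance by the liver, was highest in Gly_AC nuclei, at 43.2 ± 9.90 CPM (SD, n = 10 CKO libraries). RGC nuclei came next with a median of 12.9 CPM and a mean of 46.3 ± 113 CPM (n = 11) that rests on CKO 4, and Gly_AC was above RGC in 10 of 10 libraries that have both (mean log2 difference 1.80, two-sided exact paired permutation test, p = 0.00195, the smallest that 10 libraries allow, adjusted p = 0.0195 over 90 pairs of neighboring types). The next types were HC at 5.18 ± 2.47 and GABA_AC at 5.26 ± 2.48 CPM (n = 10 each), then immune cells and cones, and CBC, MG, RBC and rods were under 2 CPM. None of these lower neighbors differed past the threshold. The astrocytes of 4 CKO libraries held 0 *Bmp6* UMIs.

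In Gly_AC, *Bmp6* was at 54.3 CPM in the control (192 UMIs) and at 33.2, 42.0 and 63.6 CPM as the lowest, median and highest of 10 CKO libraries. The control lies inside the CKO range, with 8 libraries below it and 2 above, both made with the later kit, and the 3 CKO libraries of its own batch lie between 33.2 and 37.6 CPM. The fitted log2 difference, CKO minus control, was -0.67 ± 0.23 (SE), with p = 0.00885 and an adjusted p of 0.744 by edgeR. In RGC, *Bmp6* was at 42.5 CPM in the control (103 UMIs) and at 6.49, 12.9 and 387 CPM as the lowest, median and highest of 11 CKO libraries. CKO 4, whose value comes from 14 UMIs, is the highest, and the other 10 CKO libraries all lie below the control, at no more than 22.5 CPM. The log2 difference was -1.59 ± 0.65 (SE) with p = 0.0232 and an adjusted p of 1, and without CKO 4 it was -1.58 with p = 0.00104 and an adjusted p of 1. The unadjusted p was larger by DESeq2 (0.251) and in edgeR fits with kit alone (0.143) or no covariate (0.133). Within batch 1, where the CKO libraries have 9.30 to 22.5 CPM, it was -1.59 with an adjusted p of 0.178. With no filter on low counts, *Bmp6* in RGC was called by edgeR (adjusted p = 0.00444), among 29 of 25349 genes (0.114%), so its call depends on the filter. Over the 6 types tested, *Bmp6* log2 differences ranged from -3.97 ± 3.23 (SE) in MG to 0.02 in CBC. In MG the control has 2 UMIs (1.32 CPM) and the CKO libraries of its batch have 0, so the size of that difference is not measured. The mean of all 10 CKO libraries there, 1.99 ± 2.98 CPM, is above the control.

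*Bmp7*, a ligand of the same subgroup as *Bmp6* that is needed for eye and kidney development, was highest in RBC nuclei at 21.6 ± 9.59 CPM (n = 10), above CBC at 6.56 ± 2.26 in 10 of 10 libraries (mean log2 difference 1.52, exact paired permutation test, adjusted p = 0.0195). After CBC the order was MG, GABA_AC, Gly_AC, HC, RGC, astrocytes, cones, rods and immune cells, from 6.10 ± 2.92 CPM in MG down to 0.530 ± 0.781 in rods and 0.794 ± 1.67 in immune cells, and no neighbors among these differed past the threshold. The control had 21.03 CPM in RBC (44 UMIs) beside 11.4, 19.5 and 39.6 CPM as the lowest, median and highest CKO library. The groups overlap, with 4 CKO libraries above the control and 6 below, among them all 3 of its batch at 11.4 to 15.3 CPM. The log2 differences in the 5 types tested ranged from -0.66 in RBC to 0.94 in MG, and the smallest unadjusted p was 0.160, in RBC.

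*Bmp4* and *Bmp2*, closely related ligands with roles in early patterning of the embryo, were near the limit of detection in the retina. *Bmp4* was at 9.18 ± 8.24 CPM in astrocytes (n = 4, 6 UMIs) and 7.29 ± 6.71 CPM in HC (n = 10, 46 UMIs), and each other type had a mean under 1 CPM. HC was above CBC, the next type, in 7 of 10 libraries, which did not pass (exact paired permutation test, p = 0.0156, adjusted p = 0.0938). In HC the control had 17.4 CPM from 13 UMIs and the CKO libraries 0, 6.11 and 17.8 CPM as lowest, median and highest, with 9 of 10 below the control, and the log2 difference was -1.40 ± 1.05 (SE, p = 0.199, adjusted p = 0.906). *Bmp2* had 3 UMIs in astrocytes (4.92 ± 4.00 CPM, n = 4), under 1 CPM on average in each other type, and too few counts for a test. In the 12 astrocyte nuclei of the control a count of 0 has a 95% interval reaching 118 CPM, and with fewer than 20 control nuclei this type was not tested for any member.

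*Bmpr1a*, the type I receptor with the broadest range of BMP functions, was detected in all 11 retinal types and was highest in photoreceptors. Rods had 499 ± 27.9 CPM, cones 411 ± 28.1 and MG 281 ± 27.0 (n = 10 each). Rods were above cones in 10 of 10 libraries by a mean log2 difference of 0.28, and cones above MG in 10 of 10 by 0.55 (exact paired permutation tests, adjusted p = 0.0195 for each). Below these came astrocytes at 258 ± 46.9 (n = 4), CBC at 209 ± 26.4, Gly_AC at 195 ± 25.7, RBC at 193 ± 36.3, HC at 188 ± 46.1 and RGC at 156 ± 32.3 CPM, and neighbors in this stretch did not differ past the threshold. Immune cells, at 240 ± 97.1 CPM, were placed low in the order of mean log2 values by CKO 4, which had 0 UMIs, and they were above GABA_AC (152 ± 29.7 CPM) in 9 of 9 libraries that have both (exact test, p = 0.00391, adjusted p = 0.0320). Nuclei of the immune label also held rod markers at 1890.5 ± 736 CPM, beside immune markers at 1498 ± 1333 CPM (n = 10). The part of RNA from rods or other cells in the *Bmpr1a* values of this label was not tested. Across 10 types the log2 difference between CKO and control ranged from -0.54 to 0.22, with a smallest unadjusted p of 0.139. In rods the control had 473 CPM against 467, 492 and 558 CPM as the lowest, median and highest CKO library, and the fitted difference was 0.00 ± 0.14 (SE). In MG the control had 223 CPM, below all 10 CKO libraries at 245 to 325 CPM (batch 1 at 253 to 305), with a difference of 0.22 ± 0.17, and in cones it had 443 CPM, above 9 of 10 (batch 1 at 374 to 381), with a difference of -0.22 ± 0.14.

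*Bmpr1b*, the other type I receptor selective for BMPs and for GDF5, known for its part in cartilage and digit formation, marked the macroglia of the retina. MG had 567 ± 107 CPM (n = 10) and astrocytes 280 ± 62.3 CPM (n = 4), followed by RGC at 30.9 ± 22.7, HC at 29.5 ± 14.6, CBC at 17.7 ± 4.91, GABA_AC at 15.9 ± 6.31, immune cells at 14.2 ± 21.7, Gly_AC at 11.7 ± 3.83 and RBC at 2.41 ± 1.68 CPM. Cones had 0.357 and rods 0.233 CPM. MG was above astrocytes, and astrocytes above RGC, in 4 of 4 libraries, and 4 libraries cannot give an exact p below 0.125. None of the neighbor pairs passed. MG and RGC are not neighbors in this order, so their difference was not tested.

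In MG, *Bmpr1b* was at 373 CPM in the control (564 UMIs) and at 357, 572 and 747 CPM as the lowest, median and highest CKO library. All but 1 of the 10 CKO libraries lie above the control, and those of its batch have 480 to 588 CPM. The log2 difference was 0.46 ± 0.23 (SE) with p = 0.0586 and an adjusted p of 0.563 by edgeR. In Gly_AC the control had 3.68 CPM from 13 UMIs and the CKO libraries 5.20, 10.8 and 18.4 CPM as lowest, median and highest. All 10 CKO libraries are above the control here, and those of batch 1 have 9.80 to 12.2 CPM. The log2 difference was 1.501 ± 0.46 (SE) with p = 0.00451 and an adjusted p of 0.662 by edgeR. MG markers summed in Gly_AC nuclei to 223 CPM for control and 228 ± 48.0 CPM for CKO (n = 10), but retinal astrocyte markers to 1.697 and 5.26 ± 3.06 CPM and the astrocyte list of the brain to 179 and 232 ± 39.3 CPM, and the part of such RNA in the *Bmpr1b* values was not tested.

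*Acvr1*, a type I receptor shared by BMPs and activins and mutated in fibrodysplasia ossificans progressiva, was highest in astrocytes (236 ± 87.0 CPM, n = 4) and lowest in rods (3.88 ± 3.28 CPM, n = 10). MG, RBC, CBC and RGC formed a group between 79.2 and 94.9 CPM whose neighbors did not differ past the threshold. RGC was above GABA_AC (65.4 ± 8.76 CPM) in 10 of 10 libraries, immune cells (66.9 ± 32.3) above HC (44.8 ± 11.6) in 9 of 9, HC above cones (17.1 ± 9.00) in 10 of 10, and cones above rods in 10 of 10. These exact paired tests gave adjusted p values of 0.0195, or 0.0320 for immune cells against HC. The immune label also held markers of other cells, such as RBC markers at 1171 ± 576 CPM (n = 10), and their part in its *Acvr1* was not tested. In rods the control had 0.349 CPM from 3 UMIs, and the CKO libraries had 0, 4.17 and 7.89 CPM as lowest, median and highest. The groups overlap, with 8 of 10 CKO libraries above the control, those of batch 1 at 1.58 to 6.60 CPM, and the 4 of the later kit averaging 6.99 CPM against 1.81 CPM for the 6 of the earlier kit. The log2 difference was 3.10 ± 1.078 (SE) with p = 0.0148 and an adjusted p of 1 by edgeR, and its size moves with the libraries and covariates used, being 2.26 without CKO 3 and 2.22 (p = 0.288) with kit as the only covariate. In the other 9 types it lay between -1.02 and 0.51.

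**Figure D2:**
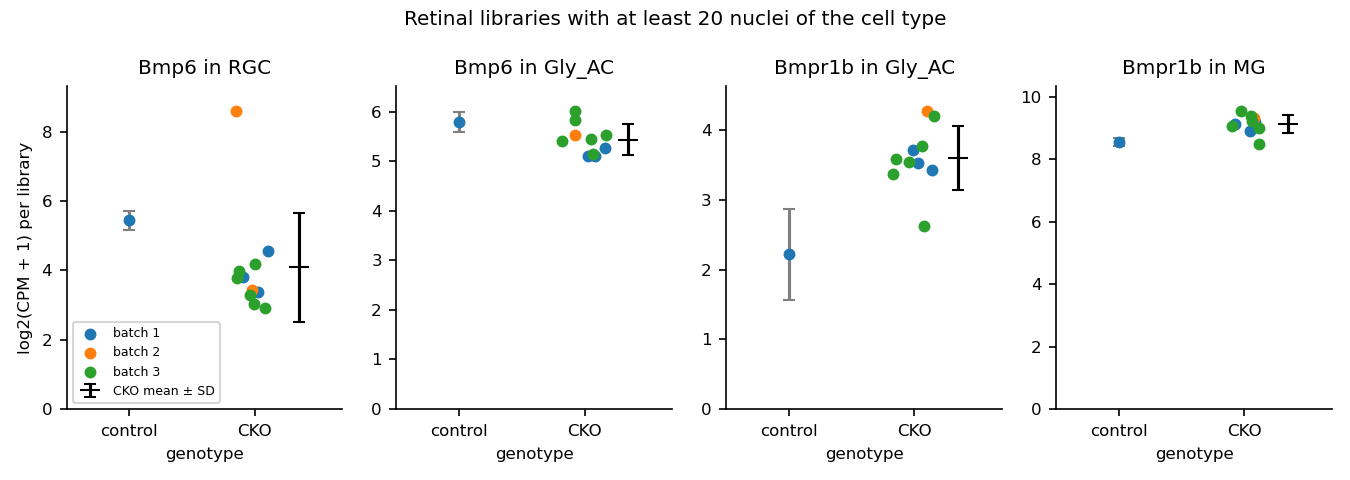
log2(CPM + 1) per library for *Bmp6* in RGC and Gly_AC and *Bmpr1b* in Gly_AC and MG, for the control with its 95% counting interval (gray bar) and each CKO library, colored by batch, beside the CKO mean ± SD on the same scale. The CKO library at 387 CPM in the RGC panel is CKO 4, and in the *Bmpr1b* panels 10 of 10 and 9 of 10 CKO libraries lie above the control.

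The type II receptors were spread widely over the retina. *Bmpr2*, the BMP type II receptor whose mutations cause heritable pulmonary arterial hypertension, ranged from 118 ± 19.4 CPM in rods to 174 ± 27.1 in MG (n = 10 each) and 201 ± 84.8 in astrocytes (n = 4). The order from high to low was astrocytes, MG, Gly_AC, immune cells, RGC, CBC, RBC, GABA_AC, cones, HC and rods, and 0 of its 10 neighbor pairs passed, the smallest exact p being 0.0137 for MG over Gly_AC (8 of 10 libraries, adjusted p = 0.0879). Between CKO and control the log2 difference over 10 types ranged from -0.71 to 0.10, with a smallest unadjusted p of 0.193. The lowest values of *Bmpr2*, *Acvr1* and *Bmpr1a* are all from immune cells, where all 6 members tested are below 0. This label pools kinds of immune cell that need not be the same in both genotypes, and it holds markers of other cells. Rod bipolar markers were at 3879 CPM in the control against 1171 ± 576 CPM in CKO libraries (n = 10), and cone bipolar markers at 1022 against 463 ± 368 CPM. Others went the other way, with cone markers at 17.5 against 263 ± 145 CPM and Müller glia markers at 218 against 335 ± 120 CPM. The values of this label are therefore not read as differences within a cell type. For *Bmpr2* in MG, for example, the control had 140 CPM and the CKO libraries 139, 160 and 223 CPM as lowest, median and highest, with 9 of 10 above the control and those of batch 1 at 153 to 159 CPM.

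*Acvr2a*, a type II receptor for activins that also serves several BMPs, was highest in GABA_AC (146 ± 33.2 CPM) and HC (148 ± 41.2 CPM), which did not differ from each other (exact test, p = 0.965, adjusted p = 1). HC was above Gly_AC (99.7 ± 26.6) and Gly_AC above CBC (89.2 ± 21.3) in 10 of 10 libraries each (adjusted p = 0.0195). RGC, RBC, cones, rods, MG, astrocytes and immune cells followed, from 93.2 ± 46.2 CPM in RGC (n = 11) to 47.2 ± 20.3 in astrocytes (n = 4), with no passing neighbors. In RGC the control had 54.8 CPM (133 UMIs) and the CKO libraries 60.7, 82.4 and 221 CPM as lowest, median and highest. Each of the 11 CKO libraries is above the control, the highest being CKO 4. The log2 difference was 0.38 ± 0.25 (SE) with p = 0.146 and an adjusted p of 1 by edgeR, and over all 10 types it ranged from -0.50 to 0.38. The lowest was in cones, at -0.50 ± 0.26 (SE), with the smallest unadjusted p of 0.0653 by edgeR. There the control had 75.6 CPM, with 5 of 10 CKO libraries above it and 5 below, and those of batch 1 at 48.4 to 59.0 CPM.

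Kit was a term of the fit. Mean levels of some members in some types were higher with the later kit, and others were similar or lower. *Acvr2a* in GABA_AC averaged 123 ± 11.3 CPM in the 6 CKO libraries of the earlier kit and 181 ± 20.7 CPM in the 4 of the later kit. *Bmpr2* in MG averaged 155 ± 8.24 and 204 ± 13.1 CPM in the same libraries, *Acvr1* in GABA_AC 59.2 ± 4.33 and 74.5 ± 3.44, and *Bmp6* in Gly_AC 37.8 ± 5.10 and 51.3 ± 10.2. The later kit was used within batch 3 only, and these differences were not tested. Over all members, 11 of 90 neighbor pairs passed, which are 4 for *Acvr1*, 3 for *Bmpr1a*, 2 for *Acvr2a* and 1 each for *Bmp6* and *Bmp7*.

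Brain values come from 1 library per genotype, so they are given as levels and ratios with 95% counting intervals and no test, and differences between mice are not measured. The ligands were highest outside the endothelium. *Bmp6* was highest in the glia label, with its fibroblast markers, at 1714 CPM (control) and 1084 CPM (CKO), followed by CP_8 (491 and 514), CP_6 (298 and 305) and vSMCs (146 and 190). *Bmp4* and *Bmp7* were highest in the same glia label, *Bmp4* at 264 and 202 CPM and *Bmp7* at 287 and 254 CPM. *Bmp4* came next in the oligodendrocyte lineage, at 80.6 and 104 CPM in oligodendrocytes and 69.1 and 95.8 CPM in OPCs, and *Bmp7* in CP_8 at 82.3 and 110 CPM. *Bmp2* had its highest mean in vSMCs, at 30.4 and 34.8 CPM, and in every brain type it was under 40 CPM.

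Among the type I receptors, *Bmpr1b* was concentrated in astrocytes, at 982 CPM (control) and 1270 CPM (CKO), with the neuron cluster Glut_0 next at 122 and 107 CPM. *Bmpr1a* was highest in astrocytes (402 and 447 CPM) and the glia label (332 and 365). *Acvr1* was highest in the neuron cluster Glut_17 (188 and 218 CPM) and had 132 and 167 CPM in ECs. In both tissues, then, the type with the most *Bmpr1b* was a macroglial one. The type II receptor *Bmpr2* was highest in ECs at 897 and 607 CPM, then in vSMCs at 448 and 406, and *Acvr2a* was highest in neurons, at 133 and 122 CPM in Glut_0. Pericytes and microglia had 22 and 11 nuclei in the CKO library, too few to count any member.

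**Figure D3:**
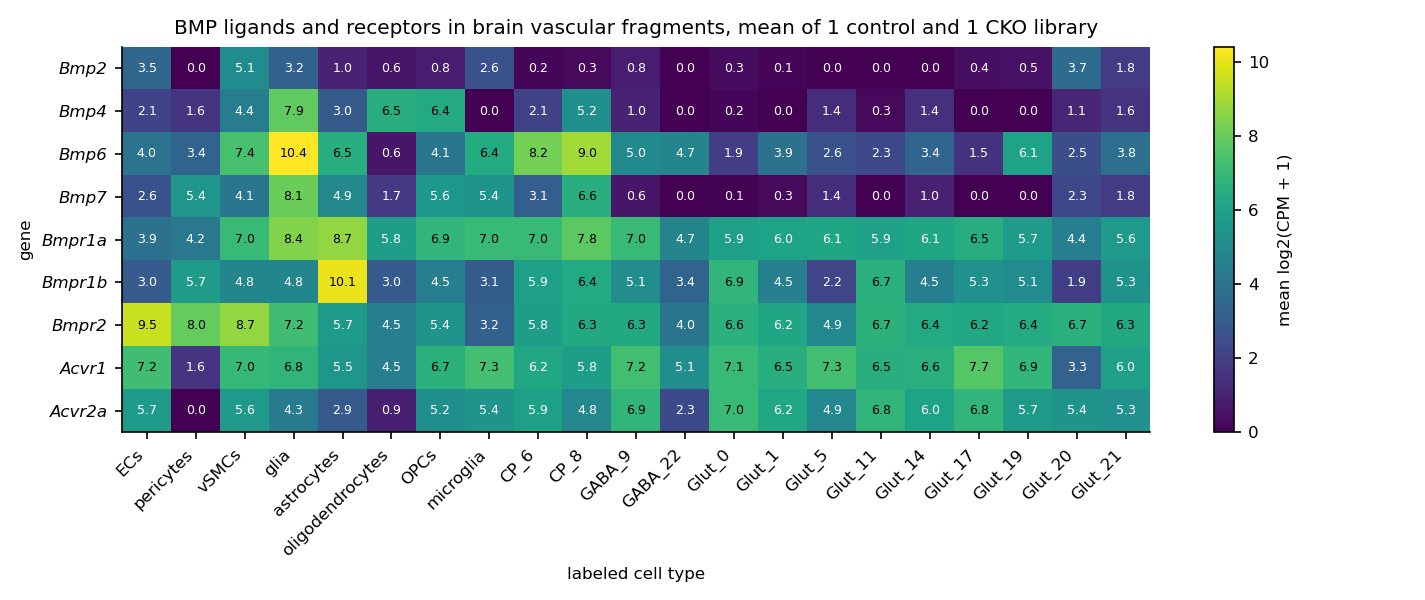
log2(CPM + 1) of each member (rows) in each of 21 labeled types of the brain vascular fragments (columns), as the mean of 1 control and 1 CKO library. *Bmpr2* is highest in ECs, *Bmpr1b* in astrocytes, and *Bmp4*, *Bmp6* and *Bmp7* in the nuclei labeled glia.

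Brain ECs are the cells in which Cre was active, and the comparison there asks how the BMP pathway stood when *Tgfbr1* was targeted. *Bmp2* and *Acvr2a* had higher CPM in the CKO library, *Bmpr1b* had lower CPM, and *Bmpr2*, which was highest in ECs among the brain types, was lower by just less than the fold used. A gene counts here with at least 50 UMIs over both libraries, and as past the fold at a ratio of at least 1.5 or its inverse. By that rule 3 of 8 members were past it, 2 higher and 1 lower, beside 30.7% of all counted genes (3486 of 11351), so the members' share is near the background. The median log2 ratio of the 8 members was 0.06 and that of all genes 0.14. TMM scaling moves the median of all genes to 0.04, a shift that applies to each ratio below.

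*Bmp2* was at 6.21 CPM in control ECs (36 UMIs) and 15.6 CPM in CKO ECs (107 UMIs), a ratio of 2.52 (1.71 to 3.78). Its counting interval lies wholly above the fold of 1.5. *Acvr2a* was at 40.2 and 66.3 CPM (233 and 454 UMIs), a ratio of 1.65 (1.41 to 1.94), and *Bmpr1b* at 9.48 and 4.96 CPM (55 and 34 UMIs), a ratio of 0.523 (0.331 to 0.817). Both of these intervals reach inside the fold. *Bmpr2* was at 897 and 607 CPM (5204 and 4156 UMIs), a ratio of 0.676 (0.649 to 0.704), just inside the fold, and at 0.629 with TMM scaling, past it. *Acvr1* had a ratio of 1.27 (1.15 to 1.39), *Bmp6* 1.25 (0.924 to 1.69), *Bmpr1a* 0.866 (0.639 to 1.17) and *Bmp7* 0.726 (0.430 to 1.22), all within the fold. *Bmp4* had 33 and 12 UMIs, under the count minimum, with a ratio of 0.308 (0.145 to 0.612). The sign of *Bmpr1a* alone turned when each nucleus was weighted equally, to a ratio of 1.10.

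Markers of other cells were present in the EC nuclei, and some lists were lower in the CKO library, as the EC markers were. All 8 pericyte markers had UMIs, summing to 7821 CPM for control and 6682 CPM for CKO, with *Rgs5* the most abundant at 5631 and 4830 CPM. Of the vSMC markers 3 of 4 had UMIs (93.6 and 90.6 CPM, *Acta2* the most abundant and *Cnn1* at 0), and all 5 fibroblast markers did (616 and 432 CPM, *Col1a2* the most abundant). Choroid plexus markers (4 of 4 with UMIs) summed to 1119 and 478 CPM, nearly all *Ttr*, and the EC markers themselves summed to 13162 and 10361 CPM with *Flt1* the most abundant. Their part in the ratios was not tested beyond the EC nuclei with 0 UMIs of pericyte and vSMC markers, 360 for control and 137 for CKO. There *Bmpr2* had a ratio of 0.385 (0.280 to 0.520) and *Acvr1* 1.29 (0.789 to 2.07), while *Bmp2* had 1 UMI in each library and *Acvr2a* 2 and 3, too few to show a difference. In these nuclei 59.9% of all counted genes were past the fold. The median log2 ratio of all genes was -0.30 there, against 0.14 in all EC nuclei. *Bmpr2* had log2 ratios of -1.38 there and -0.56 in all EC nuclei, below the median of all genes in each set. The part of the shift of all genes in its lower ratio was not tested.

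**Figure D4:**
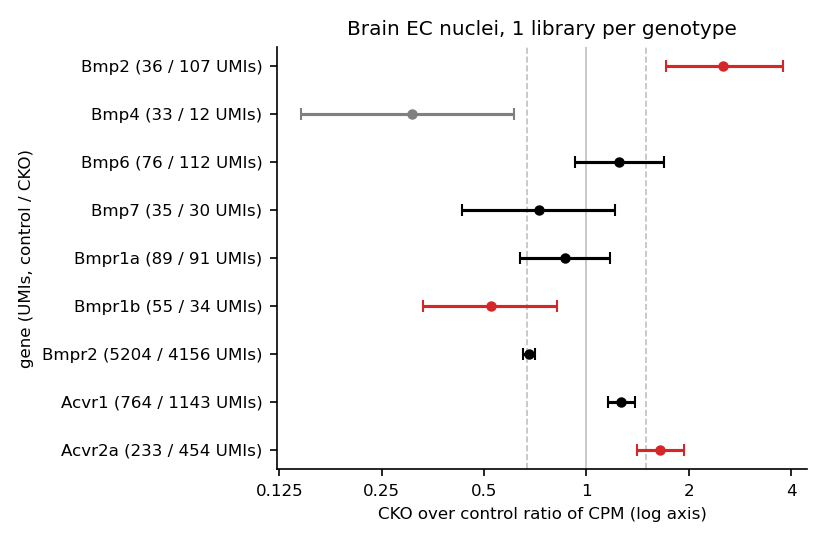
CKO over control ratio of CPM in brain ECs (log axis) for each member, with its 95% counting interval and the UMIs of each library, where dashed lines mark a fold of 1.5 in each direction. Red marks members past the fold, black those within it, and gray *Bmp4*, which is under the count minimum; *Bmp2* has the highest ratio at 2.52.

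In other brain types, the members past the fold differed from type to type. Median UMIs per nucleus for control and CKO were 1347 and 1491 in ECs, but 879 and 582 in the glia label and 1150.5 and 578.5 in astrocytes. They were 2328 and 954.5 in oligodendrocytes and 1307 and 869 in CP_6, and the part of this depth in the ratios was not tested. In the glia label 2 of 7 counted members were past the fold, beside 37.9% of genes: *Bmp6* at 0.632 (0.576 to 0.693) and *Bmpr1b* at 1.69 (0.886 to 3.09), the latter from 35 and 17 UMIs. In astrocytes 1 of 6 was, beside 35.6% of genes, which was *Bmp6* at 54.3 and 152 CPM (74 and 77 UMIs), a ratio of 2.80 (2.01 to 3.91). Fibroblast markers in these astrocytes summed to 142 CPM for control (5 of 5 with UMIs) and 186 CPM for CKO (4 of 5, *Lum* at 0), with *Col1a2* the most abundant, and choroid plexus markers to 195 and 400 CPM, with *Ttr* the most abundant. Both lists mark types with high *Bmp6*, and their part in the ratio was not tested. In the glia label choroid plexus markers summed to 1404 and 934 CPM, with *Ttr* the most abundant, and EC markers to 967 and 591 CPM, with *Cdh5* the most abundant, and the part of these in the lower *Bmp6* was not tested either. Astrocyte markers there summed to 1045 and 1348 CPM. Astrocytes had the most *Bmpr1b* of the brain types, and their part in its ratio in the glia label was not tested.

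In oligodendrocytes 3 of 4 counted members were lower past the fold, beside 42% of genes in either direction. *Bmpr1a* was at 88.3 and 34.3 CPM, a ratio of 0.389 (0.243 to 0.598), *Bmpr2* had a ratio of 0.426 (0.193 to 0.850), and *Acvr1* was at 51.6 and 8.24 CPM, a ratio of 0.160 (0.0569 to 0.363). *Bmp4*, the 1 ligand counted there, was within the fold at 1.29 (0.960 to 1.74). The median log2 ratio of all genes in this type was -0.23, and EC markers in these nuclei summed to 139 CPM for control (9 of 10 with UMIs, *Ptprb* the most abundant) and 1.37 CPM for CKO (1 of 10). Neuron markers went from 240 to 67.3 CPM and choroid plexus markers from 32.9 to 148 CPM in the same nuclei. Neuron clusters hold *Acvr1*, *Bmpr1a* and *Bmpr2*, and the part of other cells in these ratios was not tested. In CP_6, 2 of 6 counted members were higher past the fold, *Bmpr1b* at 1.54 (1.18 to 2.00) and *Bmpr2* at 1.57 (1.195 to 2.04). Of all 9684 counted genes there, 15.1% were past it in either direction, 709 higher and 753 lower. Choroid plexus markers in CP_6 also differed between the libraries, at 2998 and 1315 CPM, and the part of other cells in its ratios was not tested. In CP_8 0 of 8 were past it, beside 26.6% of genes, and in vSMCs 0 of 6, beside 27.4%.

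Among the neuron clusters, *Bmp6* was lower in the CKO library in some, where 24.4% (Glut_11), 19.9% (Glut_1) and 19.96% (Glut_0) of all counted genes were past the fold in either direction. In Glut_11 it had 53 UMIs (23.4 CPM) for control and 0 for CKO, a ratio of 0 with a 95% interval reaching 0.132. In Glut_1 it was at 20.3 and 9.04 CPM, a ratio of 0.444 (0.305 to 0.635), and in Glut_0 at 3.79 and 1.93 CPM, a ratio of 0.510 (0.269 to 0.922). Median UMIs per nucleus for control and CKO were 4669 and 1804 in Glut_11, 3603 and 1653 in Glut_1, and 5004 and 2314 in Glut_0. Genes past the fold were lower and higher in 1029 and 382, 1554 and 352, and 1419 and 512 cases, in the same order. The part of this depth in the ratios was not tested. The clusters named here were chosen from their values, and in Glut_19, where *Bmp6* was highest among the neuron clusters at 75.4 and 56.8 CPM, the ratio was 0.753 (0.536 to 1.05). In Glut_21 *Bmp6* went the other way, at 3.28 (1.37 to 8.66) from 8 and 19 UMIs, under the count minimum. So it did in Glut_5, at 36.5 (3.61 to 1795.5) from 1 and 4 UMIs, also under the minimum. In GABA_9, where it was counted, the ratio was within the fold at 0.685 (0.456 to 1.01). Of the other counted members, 2 ratios in clusters with a Glut label were past the fold upward, *Bmpr1a* in Glut_5 at 3.98 (2.35 to 6.53, beside 42.9% of genes) and *Bmpr2* in Glut_20 at 1.82 (1.05 to 3.11, beside 27.1%). Another 6 were past it downward, which are *Bmpr1a* at 0.643 (0.471 to 0.868) and *Acvr1* at 0.570 (0.441 to 0.731) in Glut_11, *Bmpr1b* at 0.653 (0.496 to 0.852) in Glut_1, 0.644 (0.388 to 1.04) in Glut_19 and 0.653 (0.393 to 1.06) in Glut_21, and *Acvr2a* at 0.608 (0.406 to 0.895) in Glut_19. Of all genes, 11.3% were past the fold in Glut_19 and 15.7% in Glut_21, and the *Bmpr1b* intervals in these clusters include 1. Counted members past the fold were 3 of 6 in Glut_11, 2 of 6 in Glut_1 and in Glut_19, and 1 of 6 in Glut_0. They were 1 of 5 in Glut_21, 1 of 2 in Glut_5 and 1 of 1 in Glut_20. In GABA_9 0 of 6 were past it, and in Glut_14 and Glut_17 0 of 5 each, beside 16.3%, 14.9% and 18.4% of genes.

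Other genes of the pathway were taken from lists of 59 genes outside the members, 55 of them with a row in both matrices. In the retinal fits 43 of them passed the filter in at least 1 type, giving 226 tests, of which edgeR called 0, with 11 at an unadjusted p under 0.05, and DESeq2 called 0, with 6. Of all genes, 367 of 13210 in RGC (the lowest share) to 1210 of 12992 in MG (the highest) had an unadjusted p under 0.05 with edgeR. With DESeq2 these were 39 of 13210 in RGC and 700 of 12992 in MG. In brain ECs, 1 of 2 counted ligands outside the members was past the fold, *Gdf11*, a ligand that signals mostly through activin receptors, at 2.93 and 6.71 CPM (17 and 46 UMIs), a ratio of 2.29 (1.29 to 4.26). Of 8 other receptors and co-receptors, 1 was higher and 2 lower, and 0 of 4 extracellular inhibitors and modulators were past the fold, beside the 30.7% of all counted EC genes. *Tgfbr3*, the co-receptor betaglycan, was at 120 and 351 CPM, a ratio of 2.92 (2.68 to 3.18). *Eng*, the endothelial co-receptor endoglin mutated in hereditary hemorrhagic telangiectasia, was at 775 and 515 CPM, a ratio of 0.665 (0.636 to 0.695), and *Neo1*, neogenin, a receptor for RGM proteins, had a ratio of 0.548 (0.437 to 0.685).

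Among 7 counted intracellular mediators 1 was higher and 2 were lower past the fold, and so were 1 and 2 of 6 known BMP response genes, beside the same 30.7% of all counted genes. *Smad1*, which carries the BMP signal, was at 158 and 254 CPM, a ratio of 1.61 (1.48 to 1.75). The inhibitory SMADs were lower, *Smad7* at 200 and 80.0 CPM, a ratio of 0.400 (0.361 to 0.443), and *Smad6* with a ratio of 0.609 (0.527 to 0.703). Of the response genes, *Id1* was at 820 and 469 CPM, a ratio of 0.572 (0.547 to 0.599), *Hey2* had a ratio of 0.660 (0.528 to 0.825), and *Msx1* was higher at 1.88 (1.39 to 2.56). *Smad7* is induced by TGF-beta as well as by BMPs, and ratios of RNA do not separate these inputs. The median log2 ratios were -0.32 for the receptors and co-receptors, -0.46 for the response genes and 0.01 for the mediators, beside 0.14 for all genes.

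Some genes have patterns across cell types close to those of the members, by Pearson's r of mean log2(CPM + 1) over 11 retinal types (among 13709 genes) and over 21 brain types (among 16246 genes), given as a description because the types share libraries. In the retina the 3 closest were, for the ligands, *Gm20063*, *Ppp1r17* and *Trhr* for *Bmp6* (r = 0.965 to 0.937), *Yeats2*, *Spag9* and *Mettl23* for *Bmp7* (0.9504 to 0.922), *Ppp1r1b*, *Rasd1* and *Ephx1* for *Bmp4* (0.982 to 0.938), and *Gm15551*, *Bbln* and *Pax2* for *Bmp2* (0.976 to 0.973). *Bmp2* and *Bmp4* rest on few UMIs there, and *Bbln* has 0 UMIs in batch 3. For the type I receptors they were *Yod1*, *Ssx2ip* and *Pla2g5* for *Bmpr1a* (0.985 to 0.973), *Plce1*, *2610307P16Rik* and *Gm4876* for *Bmpr1b* (0.988 to 0.978), and *Spred2*, *Ybx1* and *Mta1* for *Acvr1* (0.975 to 0.962). For the type II receptors they were *Fam214b*, *Ccdc50* and *Nectin2* for *Bmpr2* (0.918 to 0.913), and *Donson*, *Ppfia2* and *Gm36975* for *Acvr2a* (0.941 to 0.906). *Pax2* is itself one of the astrocyte markers used here, the label in which *Bmp2* had its highest CPM, from 3 UMIs.

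In the brain the closest were *Gpr182*, *Cks2* and *C1qa* for *Bmp2* (r = 0.960 to 0.943), *Mmp2*, *Slc22a21* and *Sema3d* for *Bmp4* (0.887 to 0.854), *Eva1c*, *Lbp* and *Sned1* for *Bmp6* (0.868 to 0.834), and *Sap25*, *Notch2* and *Cpq* for *Bmp7* (0.926 to 0.909). The 21 types include microglia and pericytes with few nuclei, and the order for *Bmp2* rests on 3 UMIs in microglia and 8 in Glut_20, ranked next after vSMCs. For the type I receptors they were *Clybl*, *Slc27a1* and *Per3* for *Bmpr1a* (0.850 to 0.828), *Gm32200*, *Gcnt4* and *Dzip1l* for *Bmpr1b* (0.834 to 0.828), and *Nr2c2*, *Slc37a3* and *Smg1* for *Acvr1* (0.917 to 0.905). For the type II receptors they were *Pls3*, *Tpm3* and *Stc1* for *Bmpr2* (0.916 to 0.906), and *Zfp821*, *Fam126b* and *Abi2* for *Acvr2a* (0.931 to 0.908). No gene was among the 3 closest to the same member in both tissues.

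By position on GRCm39, 4 of the 9 genes are on chromosome 2, which are *Acvr2a* at chr2:48703743-48793283 (plus strand), *Acvr1* at chr2:58278656-58457770 (minus), *Bmp2* at chr2:133394079-133404816 (plus) and *Bmp7* at chr2:172709805-172782410 (minus). *Bmpr1a* at chr14:34132687-34225379 and *Bmp4* at chr14:46620250-46636745 share chromosome 14 and the minus strand. *Bmpr2* is at chr1:59802544-59918173 (plus), *Bmpr1b* at chr3:141542897-141875323 (minus) and *Bmp6* at chr13:38529065-38684280 (plus).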

How the data were processed

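Input was the deposited matrices of UMI counts. By their methods, the authors ran PIPseeker on GRCm39, then CellBender and SOLO, and removed by hand mixed nuclei and, from CKO retinas 4 and 5, clusters with multiple nuclei. Cell type, batch and kit are the authors' labels. UMIs were summed per library and cell type. Retinal types with at least 20 nuclei in a library were fitted with edgeR 4.0.16 (TMM, filterByExpr, quasi-likelihood test, batch and kit as terms, Benjamini-Hochberg over all genes of a fit, threshold 0.05) and DESeq2 1.42.0 in R 4.3.3. Neighboring types were compared over CKO libraries with two-sided exact paired permutation tests on log2(CPM + 1). Their order was that of the means of the same values, so the pairs were not fixed beforehand. Brain ratios have exact conditional binomial 95% intervals, and single CPM values exact Poisson intervals. Both cover counting error only. Other steps used Python 3.11.15 with scipy 1.17.1, pandas 2.3.3, numpy 2.4.6 and, for figures, matplotlib 3.10.9. The members and lists were chosen with earlier results of these data known. All members are named, and of the other pathway genes those called in a retinal type and up to 10 past 1.5-fold in brain ECs with at least 50 UMIs. Likeness names the 3 genes of highest r among those with at least 10 CPM in some type.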

Additional observations from a re-analysis of the deposited data

Results flagged for a closer look

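Of 53 groups of 10 or fewer CKO libraries compared, 4 held a library far from the others. Chance was taken to give about 1 in 20, a rate that was not measured for these groups, which share libraries. RGC groups, with 11 libraries, were not compared, so *Bmp6* at 387 CPM in RGC of CKO 4 is outside this count. *Bmp6* in retinal immune cells was at 232 CPM in CKO 4 and at most 14.3 CPM in the other 9 libraries. *Bmpr1a* in the same nuclei was at 0 in CKO 4 and between 221 and 354 CPM in the others. *Bmpr1b* in immune cells was at 71.9 CPM in CKO 8 and at most 23.2 CPM elsewhere. *Bmp7* in Müller glia was at 12.9 CPM in CKO 1 and between 1.46 and 7.38 CPM in the others.

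In the brain, ECs, vSMCs, astrocytes, oligodendrocytes, CP_6, CP_8 and the nuclei labeled glia were compared, and neuron clusters were not. Some members had ratios of CKO over control past 1.5-fold in opposite directions in different cell types, and these differences were not tested. *Bmp6* was at 2.80 in astrocytes and 0.632 in the nuclei labeled glia. *Bmpr1b* was at 1.54 in CP_6 and 1.69 in the nuclei labeled glia, against 0.523 in ECs. *Bmpr2* was at 1.57 in CP_6 and 0.426 in oligodendrocytes.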

How the results depend on the processing

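In the retina 0 members were called under every alternative but the fit with no filter on low counts, where 1 was (*Bmp6* in RGC), with a range of 0 to 0 when each CKO library was left out in turn. Adjustment over the genes with UMIs in the batch of the control, chosen after seeing the data, also gave 0. Of 59 log2 differences, 38 kept their sign with no covariate and 42 with kit alone, and 51 to 59 of 56 to 59 when a CKO library was left out; the cause was not tested. *Bmp6* in RGC ranged from -1.92 to -1.38 and adjusted p from 0.00444 to 1 over 21 alternatives. No paired analysis was possible because the control is 1 library, which cannot be left out.

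In brain ECs, where 3 of 8 members were past the fold, beside 30.7% of all genes, 4 were with TMM scaling (*Bmpr2* added; 29.7% of genes), 1 of 2 in nuclei with 0 UMIs of mural markers (59.9%), 5 with each nucleus weighted equally (51.9%), 1 at a fold of 2 (*Bmp2*; 13.4%), 1 of 3 with at least 200 UMIs (*Acvr2a*; 23.0%), and 4 of 9 with at least 10 UMIs (*Bmp4* added; 38.1%). Of 9 ratios, 4 kept their direction in nuclei with 0 mural marker UMIs, in which 5 members have a ratio and *Bmp7* turned on 1 UMI in each library, and 8 with equal weights. Among the 4 kept in nuclei with 0 mural marker UMIs, *Bmp2* also rests on 1 UMI in each library, and *Acvr2a* on too few to show a direction. The retinal type of highest level was the same for 9 of 9 members under both other pseudocounts, and for 8 of 9 with the earlier kit alone (*Bmp4*, highest in HC) and with the later kit alone (*Acvr2a*, highest in HC). Depth limits the members with few UMIs most, and retinal astrocytes could not be fitted.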
